A study of Mus musculus with 12 samples.

Results

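Plasma cells (PC) and germinal center B cells annotated as moving from the light zone to the dark zone (LZtoDZ) were compared as 2 large, RNA-rich states of the same immune response. The members were taken from the authors' supervised annotation of single cells, which gave 137 PC and 165 LZtoDZ cells of 6000 cells in all. Mice 1, 2 and 3 gave 46, 58 and 33 PC, against 43, 56 and 66 LZtoDZ cells. The comparison asks how a state of secretion differs in its transcripts from a state of growth.

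All cells came from draining lymph nodes of mice at day 16 of a primary response to NP-KLH, which had been given with Sigma Adjuvant System, and 5 days after they received tamoxifen by gavage. Every cell was sorted as live, without surface IgD and positive for the eYFP reporter, so that both states share the labelling and the treatment; the allele behind the reporter, the strain and the age are not given in the labels. Transcripts were read from their 5' ends in droplets and counted by unique molecular identifiers (UMIs), and barcoded antibodies to CD45 marked the mouse of each cell. The sorted PC went into other wells than the rest of the B cells.

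Plasma cells arise from activated B cells under the transcription factors IRF4, BLIMP1 (gene Prdm1) and XBP1, shut down much of the B cell program and devote their endoplasmic reticulum (ER) to antibody. Germinal center B cells mutate their antibody genes and divide in the dark zone, then capture antigen and receive T cell help in the light zone. Cells chosen there switch on MYC and growth programs, build ribosomes and re-enter the dark zone to divide again.

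The authors' annotation rests on the same transcriptomes, through scores whose genes the labels and files do not name, so genes that define a state are described and are not independent findings. The PC score of the 137 PC began at 0.202, with a median of 0.741. Of the PC, 2 lay within 0.02 above that value, while 133 other cells lay within 0.02 below it and 129 other cells lay above it. The activation score of LZtoDZ cells began at 0.581, and 32 of them lay within 0.02 above that value while 42 other cells lay within 0.02 below it. By the authors' clusters, the 137 PC all lay in cluster 6, whereas 159 LZtoDZ cells lay in cluster 5, 5 in cluster 0 and 1 in cluster 1. Of 10 plasma cell markers, 10 were higher in PC, and of 10 germinal center markers, 10 were lower in PC than in LZtoDZ cells. Of 10 markers of activated cells that return to the dark zone, 8 were lower in PC and 2, Ccnd2 and Srm, were higher.

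The cell barcodes fall into 2 series that share no barcode and that the labels do not tie to wells. The first series held 20 PC (3, 11 and 6 by mouse) and 162 LZtoDZ cells. The second series held 117 PC and 3 LZtoDZ cells, which all came from mouse 3, so state and series can hardly be told apart over all cells. The comparison is therefore also given within the first series, where PC sums rest on few cells. RNA of T, NK, myeloid, stromal or erythroid cells, at 2 or more UMIs, was found in 14 PC and 6 LZtoDZ cells. The T cell gene Cd28, which plasma cells share, was left out of this count. The summed NK list lay between 9.11 and 16.5 CPM (counts per 1000000) in PC and between 0 and 0.95 CPM in LZtoDZ cells, and the myeloid list between 11.5 and 18.2 CPM in PC and between 0.95 and 3.10 CPM in LZtoDZ cells. Of 6 NK markers, 3 were at 0 in PC (Nkg7, Klrb1c and Klrd1) and 4 in LZtoDZ cells, and of 8 myeloid markers, 4 were at 0 in PC (C1qa, Csf1r, Adgre1 and Fcgr3) and 6 in LZtoDZ cells. The NK genes Gzma and Ccl5 and the myeloid genes Lyz2, C1qc and Itgam had UMIs in PC and none in LZtoDZ cells. The stromal and erythroid lists were at 0 in PC. The part of these markers in the results was not tested.

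PC spent their RNA on immunoglobulin. Immunoglobulin genes took 39.4%, 37.6% and 29.7% of all UMIs in PC of mice 1, 2 and 3, against 0.753%, 0.837% and 0.835% in LZtoDZ cells. The lowest PC value lay far above the highest LZtoDZ value, and the means were 35.6% ± 5.19 and 0.809% ± 0.0477 (SD, n = 3 mice). With 3 pairs the exact two-sided sign-flip permutation test cannot go below p = 0.25, and it gave p = 0.25. In the first series the shares were 5.57%, 13.8% and 10.6% in PC, against 0.753%, 0.837% and 0.824% in LZtoDZ cells.

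The remaining RNA was not deeper in PC. Median UMIs per cell were 25074, 24210 and 20736 in PC, against 13714, 19682 and 21332 in LZtoDZ cells, and the 2 states overlapped (exact two-sided sign-flip p = 0.5). Within the first series they were 16379, 14964 and 17404 in PC, against 13714, 19682 and 20915 in LZtoDZ cells. The mean difference, PC minus LZtoDZ, was 5097 UMIs in all cells and -1854 in the first series. Without immunoglobulin UMIs the medians were 12673, 12095 and 13632 in PC, against 13643, 19614 and 21167 in LZtoDZ cells, so PC were lower in every mouse (exact p = 0.25). Genes detected per cell followed, with medians of 2778, 2740 and 3076 in PC, against 3334, 3966 and 4196 in LZtoDZ cells. Both states stood well above light zone (LZ) cells, at a mean of 6177 UMIs other than immunoglobulin, and dark zone (DZ) cells, at 7702.

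**Figure D1:**
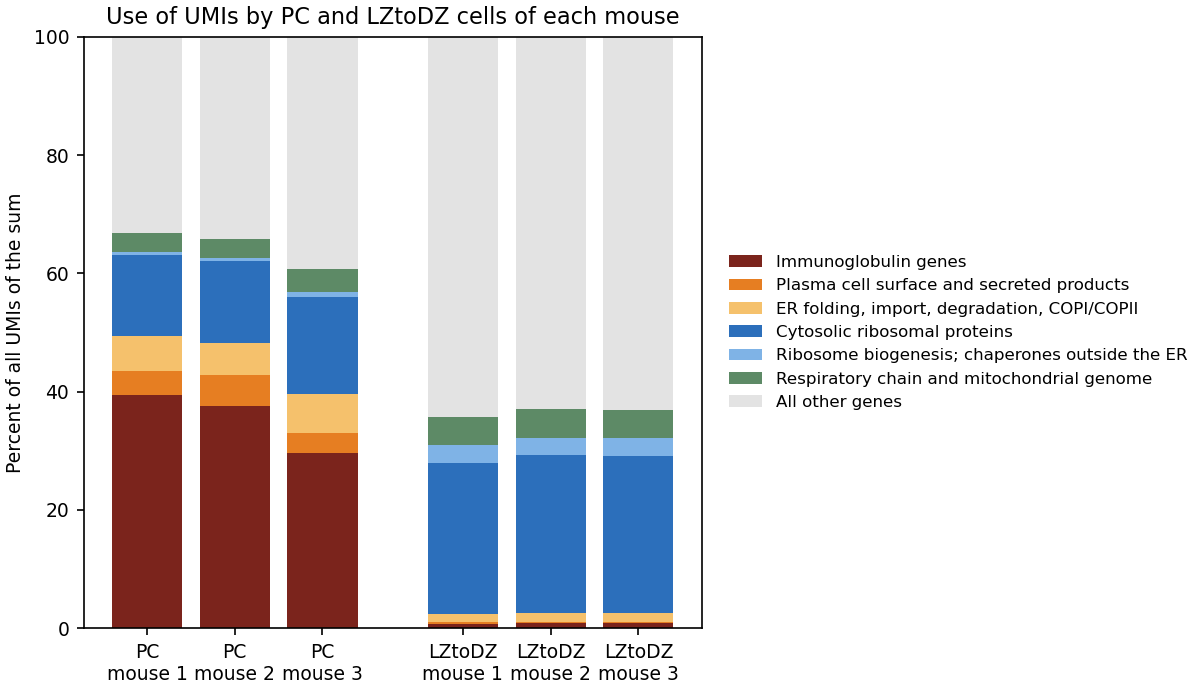
Percent of all UMIs (vertical axis) taken by immunoglobulin genes, 5 other groups of genes and all remaining genes, for the summed PC (left) and LZtoDZ cells (right) of each mouse. Immunoglobulin took 29.7% to 39.4% of the bar in PC and under 1% in LZtoDZ cells, and cytosolic ribosomal proteins took 13.6% to 16.5% in PC and 25.4% to 26.8% in LZtoDZ cells.

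UMIs were summed per mouse and state, scaled as CPM with TMM factors, and fitted with edgeR's quasi-likelihood test with the mouse as a block. Of 6899 genes tested, 1756 (25.5%) were higher in PC and 1543 (22.4%) were lower at an adjusted p under 0.05, and these shares are the background for every count below. The scale matters, since immunoglobulin fills much of the PC total. TMM left the median log2 fold change of all genes at -0.01, whereas scaling to the total of all UMIs moved it to -0.93, with 841 genes (12.2%) higher and 4257 (61.7%) lower. Scaling to the total of all UMIs other than immunoglobulin moved it to -0.35, with 1367 of 6346 genes (21.5%) higher and 2690 (42.4%) lower. Leaving immunoglobulin genes out but keeping TMM gave 1831 higher (28.9%) and 1693 lower (26.7%), with the median at -0.01. Among S and G2/M cells 21.5% of genes were higher and 18% lower, and without the PC of the first series 26.1% and 24.2%. Within the first series, 413 of 4833 genes (8.55%) were higher and 199 (4.12%) lower. Of 2514 genes called in all cells and tested there, 578 were called in the same direction and 1 in the opposite one.

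The regulators of plasma cell identity were far higher in PC. Xbp1, the transcription factor that expands the secretory pathway, stood at 3158, 3598 and 2224 CPM in PC of mice 1, 2 and 3, against 93.1, 88.1 and 97.1 CPM in LZtoDZ cells. Irf4, which starts the plasma cell program, stood at 162, 176 and 127 CPM in PC, against 8.55, 6.21 and 4.02 CPM in LZtoDZ cells. Neither gene's PC and LZtoDZ values overlapped, as in 60.7% of all genes tested. The log2 fold changes were 4.98 ± 0.23 for Xbp1 (SE, adjusted p = 9.0e-06) and 4.67 ± 0.18 for Irf4 (adjusted p = 4.34e-06). Prdm1, the repressor of the B cell program, had 99 UMIs in PC, at 46.0, 42.1 and 42.9 CPM, and 0 UMIs in LZtoDZ cells, which is at least 67.7-fold higher when the LZtoDZ sum is set to 3 UMIs. Bhlha15 (MIST1), a factor of secretory cells, had 183 UMIs in PC and 0 in LZtoDZ cells, at least 125-fold higher.

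Of the 14 tested regulators of plasma cells and of the unfolded protein response, 12 were higher in PC and 1, Nfil3, was lower, with a median log2 fold change of 3.16. The sensors of ER stress were among those higher. Ern1 (IRE1), which splices Xbp1 mRNA, stood at 42.2, 51.2 and 23.1 CPM in PC and had 1 UMI in LZtoDZ cells, a ratio of 189 (exact binomial 95% interval 33.1 to 7539, counting error only). Atf6, which is cleaved in the Golgi apparatus to a transcription factor, averaged 68.7 CPM in PC and 11.9 CPM in LZtoDZ cells, a log2 fold change of 2.51 ± 0.18 (adjusted p = 5.88e-05). Atf4, a factor of the amino acid and ER stress response, changed less, with 143 CPM in PC and 75.8 CPM in LZtoDZ cells (log2 fold change 0.90 ± 0.13, adjusted p = 0.00127), and -0.02 when scaled to the total of all UMIs. Within the first series, 6 of 9 regulators were higher and the median was 1.68.

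The folding machinery of the ER rose as a block. All 28 tested ER chaperones, disulfide isomerases and prolyl isomerases were higher in PC. Their median log2 fold change was 3.22, beside -0.01 for all genes. In each of the 28 the 3 PC and 3 LZtoDZ values did not overlap, as in 60.7% of all genes tested. The list took 3.02%, 2.75% and 3.40% of all UMIs in PC, against 0.510%, 0.464% and 0.498% in LZtoDZ cells. Per cell this was 748 ± 97.1 UMIs in PC and 100 ± 9.70 UMIs in LZtoDZ cells. LZ and DZ cells, at 0.432% and 0.402% of their UMIs, lay close to LZtoDZ cells.

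The largest changes of this list belonged to Fkbp11, Selm, Pdia4 and Dnajb9. Fkbp11, a prolyl isomerase of the ER, stood at 629, 473 and 533 CPM in PC, against 2.85, 0 and 1.01 CPM in LZtoDZ cells. Pdia4, a disulfide isomerase, stood at 2162, 1665 and 1724 CPM in PC, against 39, 34.1 and 36.2 CPM in LZtoDZ cells (log2 fold change 5.65 ± 0.19, adjusted p = 4.09e-06). Dnajb9, a cofactor of the chaperone BiP, stood at 221, 261 and 267 CPM in PC, against 4.75, 7.45 and 5.53 CPM in LZtoDZ cells (log2 fold change 5.38 ± 0.14, adjusted p = 2.87e-06). Selm had 330 UMIs in PC and 2 in LZtoDZ cells, a ratio of 339 (95% interval 93.0 to 2808). None of these 4 genes, named for their large changes, overlapped between the states, as in 60.7% of all genes tested.

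XBP1 and ATF6 act on a promoter motif called the ER stress response element (ERSE), searched here on both strands as CCAAT and CCACG with any 9 bases between them. Windows from 250 bases before to 50 after the start of transcripts were taken from RefSeq (GRCm38.p6). Of the 30 genes of the ER folding list 22 matched, with 28 windows, and 7 windows (25%) held the motif, against 39 of 32851 windows in the table (0.119%). Among 6676 windows of the genes tested, 11 (0.165%) held it. Other secretory lists, described below, were also higher in PC but differed in the motif. It lay in 0 of 31 windows of ER import and 0 of 31 of COPI and COPII vesicles. In ER-associated degradation 2 of 14 windows (14.3%) held it. The motif lay in 9 of 1712 windows of genes higher in PC (0.526%) and in 1 of 1491 windows of genes lower in PC (0.0671%). A match is a run of letters and not evidence of binding, and the genes shown were chosen because the motif was found in them. The 9 genes higher in PC are 7 of the ER folding list and Derl3 and Syvn1 of ER-associated degradation. Their sites follow, read along the motif, with the CCAAT and CCACG ends in capitals and 20 bases on either side.

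Hsp90b1, chr10:86705618-86705676, minus strand: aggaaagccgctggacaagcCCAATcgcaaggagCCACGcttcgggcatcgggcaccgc
Hsp90b1, chr10:86705513-86705571, plus strand: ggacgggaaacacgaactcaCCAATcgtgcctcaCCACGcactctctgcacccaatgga
Creld2, chr15:88819500-88819558, minus strand: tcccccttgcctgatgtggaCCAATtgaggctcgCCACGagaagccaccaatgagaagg
Derl3, chr10:75893222-75893280, minus strand: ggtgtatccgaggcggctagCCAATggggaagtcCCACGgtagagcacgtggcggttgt
Dnajc3, chr14:118937807-118937865, plus strand: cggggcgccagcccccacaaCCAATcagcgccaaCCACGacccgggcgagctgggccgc
Hspa5, chr2:34772005-34772063, plus strand: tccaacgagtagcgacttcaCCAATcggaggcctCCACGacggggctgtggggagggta
Pdia6, chr12:17266471-17266529, plus strand: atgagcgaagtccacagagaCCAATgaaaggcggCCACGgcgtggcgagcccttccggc
Calr, chr8:84847055-84847113, plus strand: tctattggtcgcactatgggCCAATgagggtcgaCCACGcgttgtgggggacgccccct
Syvn1, chr19:6046512-6046570, plus strand: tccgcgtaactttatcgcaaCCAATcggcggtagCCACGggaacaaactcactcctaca
Canx, chr11:50325780-50325838, minus strand: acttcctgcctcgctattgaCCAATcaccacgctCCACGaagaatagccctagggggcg

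These motif-bearing genes were not equally different between the states. Hsp90b1 (GRP94), the ER member of the HSP90 family and the gene with 2 sites, stood at 11482, 10184 and 10888 CPM in PC, against 322, 291 and 285 CPM in LZtoDZ cells (log2 fold change 5.18 ± 0.12, adjusted p = 2.01e-06). Hspa5 (BiP), the main ER chaperone, stood at 2440, 1989 and 2863 CPM in PC, against 382, 326 and 377 CPM in LZtoDZ cells (log2 fold change 2.74 ± 0.16, adjusted p = 2.35e-05). Canx, the membrane-bound lectin chaperone calnexin, averaged 316 CPM in PC and 198 CPM in LZtoDZ cells, a log2 fold change of 0.68 ± 0.11 (adjusted p = 0.00256), but -0.25 when scaled to the total of all UMIs. The site of Creld2 also lies in the window of its neighbour Alg12, which is read the other way and was not called (log2 fold change 0.34). The windows of Fkbp11, Pdia4 and Dnajb9 held no ERSE. The core of the unfolded protein response element (UPRE), TGACGTG, was searched as well. It lay in 4 of 28 windows of the ER folding list (14.3%), against 661 of 32851 windows in the table (2.01%) and 222 of 6676 windows of genes tested (3.33%). COPI and COPII genes had it in 6 of 31 windows (19.4%), degradation genes in 2 of 14 (14.3%) and import genes in 2 of 31 (6.45%). Fkbp11 had 2 windows, which together held 1 UPRE core and 1 E-box, CACGTG. The window of Dnajb9 held 1 E-box, in capitals in its 300 bases, which are shown as an example of a large change without an ERSE.

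Dnajb9, chr12:44210019-44210318, minus strand: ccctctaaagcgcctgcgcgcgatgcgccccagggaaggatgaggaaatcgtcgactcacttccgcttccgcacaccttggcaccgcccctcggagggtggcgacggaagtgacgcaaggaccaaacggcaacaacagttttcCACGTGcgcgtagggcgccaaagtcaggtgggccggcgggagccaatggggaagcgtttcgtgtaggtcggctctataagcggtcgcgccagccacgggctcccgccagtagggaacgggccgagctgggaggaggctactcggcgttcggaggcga

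The steps before and after folding moved the same way. Of 36 tested genes of ER import, signal cleavage and N-glycosylation, 35 were higher in PC and none lower (median log2 fold change 2.42), with Stt3b, a catalytic subunit of the glycosylation complex, not called at 0.15 (-0.78 with the total of all UMIs as scale). Ssr4, a subunit of the translocon-associated complex, stood at 2973, 2858 and 2036 CPM in PC, against 172, 174 and 150 CPM in LZtoDZ cells. Sec11c, a subunit of the signal peptidase, stood at 2908, 2749 and 2169 CPM in PC, against 190, 222 and 207 CPM in LZtoDZ cells. No member of this list was lower in PC under any scaling except 1 under the total of all UMIs.

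Of 17 genes of ER-associated degradation, 16 were higher and none lower (median 2.45). Edem1 and Edem2, which hand misfolded glycoproteins over for removal, averaged log2 fold changes of 4.64 ± 0.20 and 4.74 ± 0.13 (adjusted p = 7.08e-06 and 3.54e-06). Of 33 genes of COPI and COPII vesicles and their cargo receptors, 32 were higher and none lower (median 2.09), with Sec24b not called at -0.53. Its paralog Sec24d, a cargo adaptor of COPII coats, stood at 114, 95.6 and 135 CPM in PC, against 0.95, 3.72 and 1.51 CPM in LZtoDZ cells. The retrieval receptor Kdelr1, which returns ER proteins from the Golgi apparatus, stood at 466, 396 and 403 CPM in PC, against 39.9, 42.8 and 40.7 CPM in LZtoDZ cells. Of 17 autophagy genes, 9 were higher and 1, Optn, was lower (median 0.88), but 7 were higher and 5 lower when scaled to the total of all UMIs (median -0.05). Of 10 autophagy genes tested within the first series, 3 were higher.

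Within the first series these lists kept their direction with smaller medians. ER folding had 22 of 26 members higher (median 2.07), ER import 26 of 33 (1.52), degradation 11 of 14 (1.27) and vesicles 19 of 28 (1.31), with none lower, where 8.55% of genes were higher. Scaled to the total of all UMIs the medians were 2.29, 1.5, 1.53 and 1.19. Among cells in S or G2/M only they were 2.69, 2.25, 2.23 and 1.86.

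**Figure D2:**
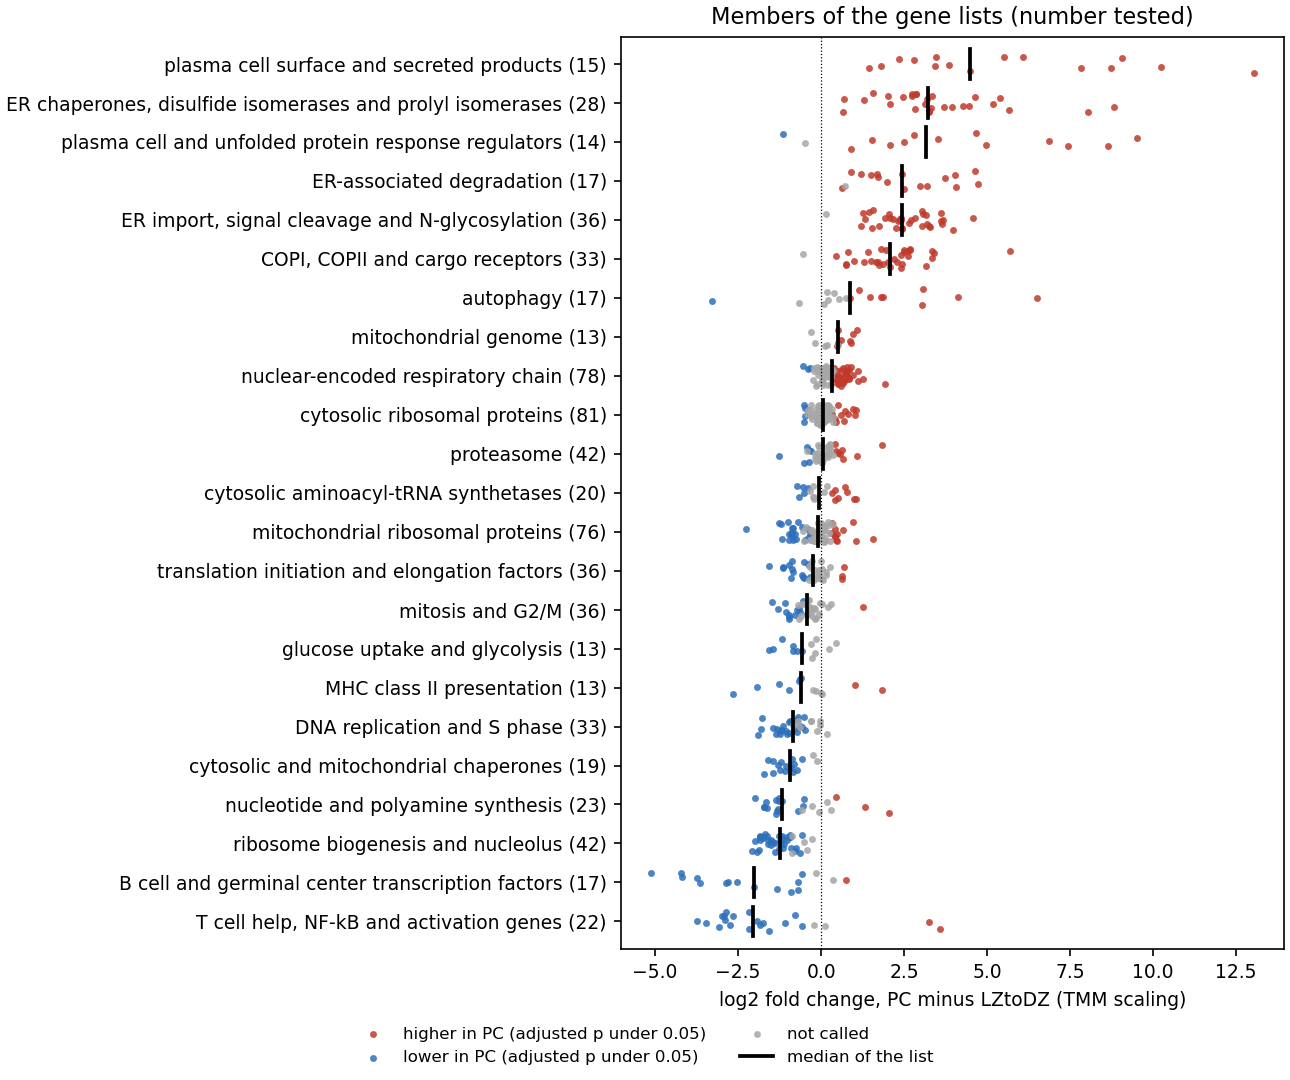
Log2 fold change, PC minus LZtoDZ (horizontal axis), of each tested member of 23 gene lists, with the number tested in brackets, calls in colour and the list's median as a bar. The 28 members of the ER folding list all lay above 0 and 37 of 42 members of the ribosome biogenesis list were lower in PC; the medians of autophagy (0.88), proteasome (0.04), ribosomal proteins (0.05), respiratory chain (0.33) and mitochondrial genome (0.51) fall below 0 when samples are scaled to the total of all UMIs, that of G2/M genes (-0.41) rises above 0 among S and G2/M cells and that of MHC class II genes (-0.60) within the first series. Genes with 0 UMIs in LZtoDZ cells are drawn at fitted values.

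Transcripts of immunoglobulin constant genes differed in amount and in kind. Counts per gene do not separate secreted from membrane forms. Of 11 tested immunoglobulin constant genes 10 were higher in PC and none lower. Ighg1 stood at 15590, 10111 and 13314 CPM in PC, against 117, 58.9 and 82.0 CPM in LZtoDZ cells (log2 fold change 7.27 ± 0.14, adjusted p = 1.28e-06). Ighm, the constant gene of IgM, stood at 2617, 2754 and 5651 CPM in PC, against 214, 251 and 224 CPM in LZtoDZ cells (log2 fold change 3.91 ± 0.28, adjusted p = 5.3e-05). The mice differed in the other switched genes. Ighg2c stood at 2977, 10362 and 46.2 CPM in PC, against 8.55, 11.8 and 14.1 CPM in LZtoDZ cells, and Ighg3 at 1988, 12.5 and 38 CPM in PC, against 3.80, 8.07 and 14.6 CPM in LZtoDZ cells. Ighg3 was not called (adjusted p = 0.0805), and its PC values overlapped those of LZtoDZ cells. Immunoglobulin genes share sequence, so counts among close constant genes are uncertain.

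By the most abundant heavy-chain constant transcript of each cell, IgM marked 17.6% ± 5.88 of PC and 58.5% ± 2.5 of LZtoDZ cells (SD, n = 3 mice). IgG1 marked 54.3%, 29.3% and 63.6% of PC, against 37.2%, 23.2% and 25.8% of LZtoDZ cells, and was higher in PC of every mouse. In mouse 2, IgG2c marked 39.7% of PC and 5.36% of LZtoDZ cells. These shares were taken over both barcode series together. Jchain, the joining chain of IgM and IgA polymers, stood at 33068, 34645 and 22515 CPM in PC, against 556, 695 and 689 CPM in LZtoDZ cells. The most frequent heavy-chain variable gene by transcript was Ighv1-22 in both states of mouse 2 (11 of 58 PC and 9 of 55 LZtoDZ cells) and Ighv1-72 in both states of mouse 3 (10 of 33 PC and 9 of 66 LZtoDZ cells).

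All 15 tested plasma cell surface and secreted products were higher in PC. The median log2 fold change was 4.48, also with the 4 genes at 0 UMIs in LZtoDZ cells set to their bounds. Ly6c2, a surface antigen, stood at 948, 1092 and 728 CPM in PC and had 0 UMIs in LZtoDZ cells, at least 1466-fold higher. Sdc1 (CD138), the usual surface marker of plasma cells, stood at 141, 116 and 116 CPM in PC, with 282 UMIs in PC and 2 in LZtoDZ cells, a ratio of 289 (95% interval 79.4 to 2401). Cd28, a co-stimulatory receptor shared by T cells and plasma cells, stood at 211, 101 and 116 CPM in PC and 0 in LZtoDZ cells, at least 222-fold higher. The T cell receptor genes Trac and Trbc2 and Cd3d, Cd3e, Cd3g, Cd4 and Cd8a had 0 UMIs in PC. Cd8b1, another T cell marker, had UMIs in PC and 0 in LZtoDZ cells. The summed list of 9 T cell markers, at 212, 101 and 116 CPM in PC, lay near Cd28 alone. Tnfrsf17 (BCMA), a survival receptor, stood at 43.4, 50.1 and 72.6 CPM in PC and 0 in LZtoDZ cells, at least 83.5-fold higher.

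Other genes at the top of the list for PC were Ckap4, which anchors ER sheets (400 UMIs in PC and 0 in LZtoDZ cells, at least 274-fold higher), Entpd1 (CD39), which degrades extracellular ATP (at least 233-fold higher), Pml, Tmem154, Rbm47, Hid1 and Bhlhe41. S100a10, the partner of annexin A2, stood at 226, 202 and 234 CPM in PC and had 1 UMI in LZtoDZ cells, a ratio of 1018 (95% interval 182 to 40291). Pgam2 varied most among the mice, at 53.7, 21.6 and 101 CPM in PC, and had 0 UMIs in LZtoDZ cells.

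Genes that place cells in tissue changed in 16 of 17 tested members, with 12 higher and 4 lower in PC. Cxcr3, a receptor for inflammatory chemokines, stood at 135, 212 and 162 CPM in PC, against 0.95, 5.58 and 1.01 CPM in LZtoDZ cells. The integrin chains Itga4 and Itgb7 were higher too, with Itga4 at 98.4, 94.5 and 106 CPM in PC, against 1.90, 3.72 and 2.51 CPM in LZtoDZ cells. Klf2, a factor of circulating lymphocytes, averaged 93.1 CPM in PC and 3.17 CPM in LZtoDZ cells (log2 fold change 4.93 ± 0.33, adjusted p = 3.95e-05). Most of its UMIs in PC came from the 20 PC of the first series, with 164 there and 48 in the 117 of the second, and it fell under the filter on low counts when they were left out. Itgb7 had 65 UMIs in first-series PC and 118 in second-series PC, against 2 in first-series LZtoDZ cells. The follicular receptor Cxcr5 and S1pr2, which holds cells in the germinal center, were lower, with S1pr2 at 5.11, 12.5 and 0 CPM in PC, against 74.1, 78.8 and 77.0 CPM in LZtoDZ cells. Cxcr4, the receptor that draws cells to the dark zone and plasma cells to their niches, averaged 46.7 CPM in PC and 24.6 CPM in LZtoDZ cells (log2 fold change 0.90 ± 0.24, adjusted p = 0.0192), but -0.01 when scaled to the total of all UMIs.

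On the growth side, ribosome biogenesis was higher in LZtoDZ cells than in PC, opposite to the secretory lists. Of 42 tested genes of ribosome biogenesis and the nucleolus, 37 were lower in PC and none higher (median log2 fold change -1.25). The list took 0.174%, 0.176% and 0.273% of all UMIs in PC, against 1.27%, 1.12% and 1.17% in LZtoDZ cells. Per cell this was 50.5 ± 12.2 UMIs in PC and 242 ± 16.2 UMIs in LZtoDZ cells. LZ cells had 31.3 UMIs per cell and 0.447% of UMIs, and DZ cells 34.3 UMIs and 0.384%, so that LZtoDZ cells had the highest share of the 4 states. Immunoglobulin fills part of the PC total in these shares. With TMM scaling the summed list averaged 2972 CPM in PC and 8749 CPM in LZtoDZ cells, beside 3548 CPM in LZ and 2974 CPM in DZ cells. PC thus lay near LZ and DZ cells on that scale, and LZtoDZ cells stood apart.

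Npm1, a nucleolar chaperone, stood at 589, 642 and 867 CPM in PC, against 2681, 2769 and 2743 CPM in LZtoDZ cells (log2 fold change -1.99 ± 0.17, adjusted p = 0.000134). Ncl, nucleolin, stood at 325, 298 and 408 CPM in PC, against 1450, 1193 and 1250 CPM in LZtoDZ cells (log2 fold change -1.93 ± 0.18, adjusted p = 0.000186). Gar1, a protein of the snoRNPs that modify rRNA, had the largest change at -2.09 ± 0.15 (adjusted p = 5.83e-05). No PC value of these 3 genes reached a LZtoDZ value, and the states did not overlap in 60.7% of all genes tested. Within the first series 21 of 40 members were lower and none higher (median -1.15), where 4.12% of genes were lower, and with the total of all UMIs as scale 42 of 42 were lower (median -2.17).

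MYC and its partner MAX bind the E-box CACGTG, which was searched as those letters and is its own reverse complement. Of the 43 genes of this list 38 matched the RefSeq windows, with 42 windows, and 10 (23.8%) held an E-box, against 2349 of 32851 windows in the table (7.15%) and 740 of 6676 windows of genes tested (11.1%). The ERSE was in none of the 42 windows. The E-box was not confined to lists lower in PC. It lay in 5 of 28 windows of the ER folding list (17.9%) and 4 of 31 of ER import (12.9%). COPI and COPII vesicles had it in 3 of 31 windows (9.68%) and ER-associated degradation in 1 of 14 (7.14%). Of the ribosome biogenesis list, the 4 E-box sites whose genes changed most are shown with up to 12 bases on either side. The E-box is in capitals, read along the gene. The log2 fold changes of these 4 genes ran from -1.28 to -1.84, and those of the other E-box genes of the list from -0.63 to -1.18. Members without an E-box included Gar1, Ncl and Rrp1b at -2.09, -1.93 and -1.85, and Gnl3 at -0.28. The windows of genes lower in PC held an E-box in 206 of 1491 cases (13.8%), those of genes higher in PC in 181 of 1712 (10.6%).

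Mybbp1a, chr11:72441355-72441376, plus strand: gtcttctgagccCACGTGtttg
Grwd1, chr7:45830740-45830767, minus strand: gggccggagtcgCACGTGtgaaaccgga
Nop2, chr6:125131811-125131840, plus strand: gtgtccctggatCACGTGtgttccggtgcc
Nle1, chr11:82908355-82908384, minus strand: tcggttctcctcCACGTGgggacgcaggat

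Mybbp1a, a nucleolar protein that binds MYB, averaged 58.7 CPM in PC and 207 CPM in LZtoDZ cells (log2 fold change -1.84 ± 0.21, adjusted p = 0.000505). Grwd1, a ribosome assembly chaperone, averaged 22.8 CPM in PC and 68.7 CPM in LZtoDZ cells. Nop2, an rRNA methyltransferase, averaged 23.8 CPM in PC and 64.4 CPM in LZtoDZ cells. These genes were named for their sites.

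Myc itself stood at 21.7, 34.2 and 39.6 CPM in PC, against 151, 94.9 and 61.4 CPM in LZtoDZ cells (log2 fold change -1.66 ± 0.34, adjusted p = 0.0063). The groups did not overlap, as in 60.7% of all genes tested, and the LZtoDZ values spread widely, with mouse 1 the highest. LZ cells averaged 43.3 CPM and DZ cells 14.6 CPM. Max, its partner, was lower in PC as well (log2 fold change -1.32 ± 0.21, adjusted p = 0.00219). Mxd4, a MAX partner that opposes MYC, ran the other way at 114, 110 and 95.8 CPM in PC, against 1.90, 6.21 and 5.53 CPM in LZtoDZ cells (log2 fold change 4.40 ± 0.26, adjusted p = 2.28e-05). It was lower in LZtoDZ cells than in LZ cells (57.4 CPM) and DZ cells (42.1 CPM).

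Chaperones outside the ER moved with ribosome biogenesis and not with the ER chaperones. Of 19 tested cytosolic and mitochondrial chaperones, 17 were lower in PC and none higher (median -0.94). The summed list averaged 6036 CPM in PC and 13059 CPM in LZtoDZ cells, beside 6661 CPM in LZ and 6539 CPM in DZ cells. Hspd1 (HSP60), the mitochondrial chaperonin, stood at 164, 154 and 248 CPM in PC, against 613, 588 and 615 CPM in LZtoDZ cells. Hsp90ab1, the cytosolic relative of Hsp90b1, stood at 1386, 1413 and 1587 CPM in PC, against 3871, 4002 and 4084 CPM in LZtoDZ cells (log2 fold change -1.45 ± 0.13, adjusted p = 0.000141). The 2 paralogs of the HSP90 family thus changed in opposite directions, at 4.26 and -2.37 with the total of all UMIs as scale and at 3.49 and -0.78 within the first series. Hspa9, the mitochondrial relative of Hspa5, was lower as well (log2 fold change -1.60 ± 0.12, adjusted p = 8.04e-05).

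Precursor supply was mixed. Of 23 tested genes of nucleotide and polyamine synthesis, 15 were lower in PC and 3 higher (median -1.18). Among S and G2/M cells 12 were lower and 3 higher, and within the first series 3 were lower and none higher (median -0.59). The summed list averaged 1986 CPM in PC and 3159 CPM in LZtoDZ cells, beside 1633 CPM in LZ and 1724 CPM in DZ cells. Impdh2 and Impdh1, which catalyse the same step of guanine nucleotide synthesis, split between the states. Impdh2 stood at 93.3, 79.7 and 121 CPM in PC, against 363, 383 and 404 CPM in LZtoDZ cells, while Impdh1 stood at 97.1, 82.0 and 74.3 CPM in PC, against 25.7, 14.3 and 21.6 CPM in LZtoDZ cells (adjusted p = 3.89e-05 and 0.000185). Srm, spermidine synthase, averaged 379 CPM in PC and 278 CPM in LZtoDZ cells (log2 fold change 0.44 ± 0.11, adjusted p = 0.0163), but -0.49 when scaled to the total of all UMIs and -0.53 within the first series. LZ cells averaged 51.6 CPM of Srm and DZ cells 29.7 CPM.

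Of 14 tested genes of serine, one-carbon and related amino acid metabolism, 7 were lower and 4 higher in PC. Shmt1, Mthfd1, Mthfd1l and Mthfd2 of the folate cycle were the ones most reduced, with Mthfd2 at 51.1, 52.4 and 31.4 CPM in PC, against 163, 133 and 144 CPM in LZtoDZ cells. Pycr1, the last enzyme of proline synthesis, stood at 97.1, 95.6 and 57.8 CPM in PC, against 2.85, 1.24 and 2.51 CPM in LZtoDZ cells (log2 fold change 5.15 ± 0.29, adjusted p = 1.98e-05). Of 13 glycolysis genes 7 were lower and none higher, with Ldha, lactate dehydrogenase, at 487, 451 and 591 CPM in PC, against 1537, 1523 and 1427 CPM in LZtoDZ cells. The summed glycolysis list averaged 3129 CPM in PC and 5485 CPM in LZtoDZ cells, beside 3375 CPM in LZ and 3271 CPM in DZ cells. Mtor, the growth kinase, averaged 20.7 CPM in PC and 6.98 CPM in LZtoDZ cells (log2 fold change 1.52 ± 0.32, adjusted p = 0.00724).

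Cell division followed the phase calls of the authors in part. Cells in S or G2/M made up 34.8%, 29.3% and 39.4% of PC, against 88.4%, 87.5% and 92.4% of LZtoDZ cells (exact two-sided sign-flip p = 0.25). In the first series they made up 100%, 45.5% and 83.3% of PC, against 88.4%, 87.5% and 92.1% of LZtoDZ cells (exact p = 0.75), with 3, 11 and 6 PC behind these shares. Of 33 tested S phase genes, 24 were lower in PC and none higher (median -0.86). Among S and G2/M cells 8 of 33 were lower and 1 higher (median -0.31), and in the first series 1 of 32 was lower (median -0.22).

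G2/M genes divided less clearly, with 13 of 36 lower and 1 higher in PC (median -0.41), but 8 higher and 1 lower among S and G2/M cells (median 0.27). The count of lower genes rested on single mice, at 18 without mouse 1, 5 without mouse 2 and 7 without mouse 3. Mki67 stood at 207, 141 and 263 CPM in PC, against 196, 253 and 272 CPM in LZtoDZ cells, and was not called (log2 fold change -0.27 ± 0.18, adjusted p = 0.263). The D-type cyclins, which drive entry into the cycle, traded places. Ccnd2 stood at 425, 311 and 362 CPM in PC, against 45.6, 37.9 and 34.7 CPM in LZtoDZ cells (log2 fold change 3.21 ± 0.11, adjusted p = 4.15e-06). Ccnd3 stood at 51.1, 60.3 and 44.6 CPM in PC, against 376, 429 and 405 CPM in LZtoDZ cells (log2 fold change -2.95 ± 0.12, adjusted p = 6.33e-06). The inhibitor Cdkn1b (p27) was higher in PC (log2 fold change 2.84 ± 0.31, adjusted p = 0.000396) and the cyclin D partners Cdk4 and Cdk6 lower (log2 fold changes -1.06 and -2.86).

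**Figure D3:**
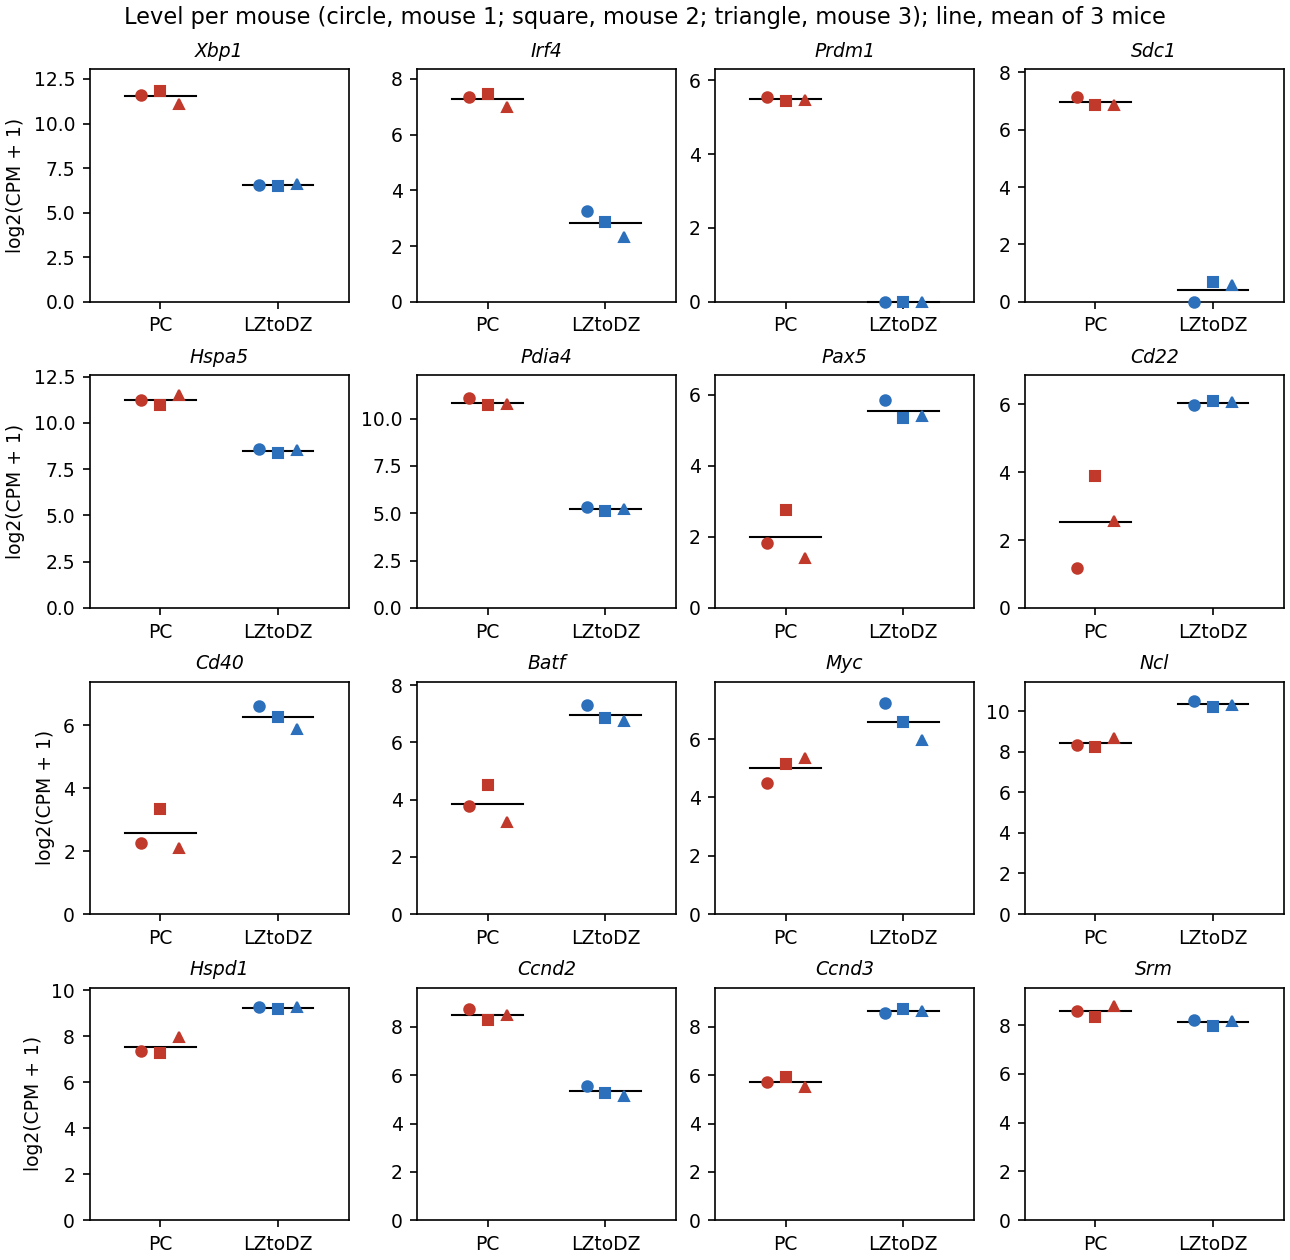
Level of 16 genes as log2(CPM + 1) (vertical axes, each starting at 0) in PC (left) and LZtoDZ cells (right) of mice 1, 2 and 3, with the mean as a line. PC lie above LZtoDZ cells for Xbp1, Irf4, Prdm1, Sdc1, Hspa5, Pdia4 and Ccnd2 and below them for Pax5, Cd22, Cd40, Batf, Myc, Ncl, Hspd1 and Ccnd3; Srm, at a mean of 379 CPM in PC and 278 CPM in LZtoDZ cells, turns round when samples are scaled to the total of all UMIs.

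The germinal center and B cell program was lower in PC. Of 17 tested B cell and germinal center transcription factors, 14 were lower and 1 higher (median -2.03). Pax5, the guardian of B cell identity, stood at 2.56, 5.69 and 1.65 CPM in PC, against 56.1, 39.7 and 41.2 CPM in LZtoDZ cells (log2 fold change -3.66 ± 0.37, adjusted p = 0.000283). Bcl6, the master repressor of the germinal center, had 1 UMI in PC and 89 in LZtoDZ cells, a ratio of 43.4 in favour of LZtoDZ cells (95% interval 7.58 to 1732). Bach2, which delays plasma cell fate, had 2 UMIs in PC and 85 in LZtoDZ cells, a ratio of 20.7 in favour of LZtoDZ cells (95% interval 5.56 to 174). The exception was Foxo1, a dark zone factor, at 42.2, 38.7 and 41.3 CPM in PC, against 20.0, 21.7 and 30.2 CPM in LZtoDZ cells (log2 fold change 0.76 ± 0.21, adjusted p = 0.0202), but -0.15 when scaled to the total of all UMIs.

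Fcer2a (CD23), Gcsam, Spib and Rgs13 were also among the genes most reduced, with Gcsam, a germinal center signalling adaptor, at 5.11, 13.7 and 8.25 CPM in PC, against 127, 146 and 130 CPM in LZtoDZ cells. Of 22 B cell receptor and co-receptor genes, 11 were lower and 5 higher, but 17 were lower and none higher when scaled to the total of all UMIs. With TMM scaling the summed list averaged 3705 CPM in PC and 3792 CPM in LZtoDZ cells. In LZ and DZ cells it averaged 9951 and 8279 CPM. Cd22, an inhibitory co-receptor, stood at 1.28, 13.7 and 4.95 CPM in PC, against 61.8, 67.6 and 66.4 CPM in LZtoDZ cells. Ctss, the protease that trims the invariant chain, was higher in PC (log2 fold change 1.83 ± 0.10, adjusted p = 1.96e-05), whereas Cd74, the invariant chain itself, was not called at 0.03 (-0.89 with the total of all UMIs as scale).

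Genes of T cell help and NF-kB activation were lower in 18 of 22 tested members and higher in 2 (median -2.06). Cd40, the receptor of T cell help, stood at 3.83, 9.11 and 3.30 CPM in PC, against 96.9, 75.1 and 57.8 CPM in LZtoDZ cells (log2 fold change -3.74 ± 0.30, adjusted p = 9.59e-05). Batf, an AP-1 factor of activated B cells, stood at 12.8, 21.6 and 8.25 CPM in PC, against 159, 114 and 107 CPM in LZtoDZ cells (log2 fold change -3.08 ± 0.25, adjusted p = 9.72e-05). The 2 members higher in PC were Jun and Fos, AP-1 factors induced soon after stimulation. Jun stood at 54.9, 28.5 and 34.7 CPM in PC, against 1.90, 3.72 and 3.02 CPM in LZtoDZ cells.

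The 20 PC of the first series held more of this program than the other 117. In UMIs per 1000000 other than immunoglobulin, Pax5 was 19.2 in first-series PC and 1.10 in second-series PC, against 61.9 in first-series LZtoDZ cells. Spib was 41.5, 0 and 108 in the same order, and Ms4a1 (CD20) was 476, 128 and 864. Sdc1 was 3.20 in first-series PC and 155 in second-series PC, against 0.610 in first-series LZtoDZ cells, while Prdm1 was 67.1 and 43.0, against 0. Xbp1 was 828 and 3701, against 127. Within the first series 1 of 16 B cell factors was lower and none higher (median -0.73), and 5 of 17 activation genes were lower (median -0.85). Without the first-series PC 14 of 17 B cell factors were lower and 2 higher (median -2.51).

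MHC class II genes differed with the cells compared. Of 13 tested genes 7 were lower and 2 higher in PC (median -0.60), but within the first series none of 12 was lower, 1 was higher and the median was 0.12. H2-Aa stood at 677, 1341 and 976 CPM in PC, against 2042, 1688 and 1973 CPM in LZtoDZ cells (log2 fold change -0.98 ± 0.25, adjusted p = 0.0158), and had a log2 fold change of 0.02 within the first series. Without first-series PC, 7 of 13 genes were lower and the median was -0.77. The summed list averaged 12997 CPM in PC and 14386 CPM in LZtoDZ cells, beside 36328 CPM in LZ and 21929 CPM in DZ cells. Both states thus lay below the other germinal center cells on that scale.

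Lists of the general machinery of the cell had smaller median changes under TMM than the secretory and ribosome biogenesis lists. TMM itself put the median of all genes at -0.01. Some of these lists still held more calls than the background, with 50.0% of respiratory chain genes and 61.5% of mitochondrial genome genes higher in PC. Of translation factors 38.9% were lower. Of 81 tested cytosolic ribosomal protein genes, 11 were higher in PC and 4 lower (median 0.05), but 74 were lower and none higher when scaled to the total of all UMIs (median -0.87), and 58 were lower and 8 higher with immunoglobulin left out of that total (median -0.31). They took 22.7% of UMIs other than immunoglobulin in PC and 26.5% in LZtoDZ cells, and 14.6% ± 1.62 and 26.3% ± 0.779 of all UMIs (SD, n = 3 mice). Per cell this was 3569 ± 344 UMIs in PC and 5396 ± 745 UMIs in LZtoDZ cells. Ribosomal proteins and ribosome biogenesis therefore did not move by the same factor, with medians of 0.05 and -1.25 under TMM and -0.87 and -2.17 under the total of all UMIs.

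Of 78 tested nuclear genes of the respiratory chain, 39 were higher in PC and 3 lower (median 0.33), but 1 was higher and 47 lower when scaled to the total of all UMIs (median -0.59). They took 3.6% of UMIs other than immunoglobulin in PC and 3.51% in LZtoDZ cells. Ndufa1, a complex I subunit, kept its direction at 796, 707 and 609 CPM in PC, against 199, 161 and 199 CPM in LZtoDZ cells (log2 fold change 1.92 ± 0.16, adjusted p = 0.000112). Of 13 genes of the mitochondrial genome 8 were higher in PC (median 0.51), but none was higher under the total of all UMIs (median -0.42). Proteasome genes were split 8 higher and 6 lower of 42, but 1 was higher and 35 lower under the total of all UMIs (median -0.88), and leaving out 1 mouse gave 4 to 7 higher and 2 or 3 lower. Psmb9, a subunit of the immunoproteasome, was higher (log2 fold change 1.07 ± 0.14, adjusted p = 0.000861) and the activator Psme3 was lower (log2 fold change -1.26 ± 0.18, adjusted p = 0.00137).

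Of 36 initiation and elongation factors of translation 14 were lower in PC and 3 higher (median -0.25), and 33 were lower and none higher when scaled to the total of all UMIs (median -1.17). In the first series alone 3 were lower and none higher. Eif4a1, the helicase that unwinds mRNA leaders, stood at 465, 498 and 482 CPM in PC, against 975, 866 and 972 CPM in LZtoDZ cells. Of 20 tRNA synthetases 8 were higher and 5 lower (median -0.06), and of 76 mitochondrial ribosomal proteins 12 were higher and 22 lower (median -0.10). The scale changed the split of both lists: with the total of all UMIs, no tRNA synthetase was higher and 16 were lower (median -0.99), and 1 mitochondrial ribosomal protein was higher and 72 were lower (median -1.02). Of 9 amino acid transporters 4 were higher and 2 lower (median 0.01), against 2 higher and 5 lower with the total of all UMIs (median -0.91), with Slc7a7 at 26.8, 29.6 and 19.8 CPM in PC, against 1.90, 1.86 and 3.02 CPM in LZtoDZ cells. Of 21 genes of cholesterol synthesis and uptake 6 were lower and 3 higher, against 16 lower and none higher with the total of all UMIs, with Hmgcs1, an early enzyme, at 21.7, 19.4 and 8.25 CPM in PC, against 72.2, 49.0 and 41.7 CPM in LZtoDZ cells.

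Among genes of cell survival, Mcl1, on which plasma cells depend, stood at 120, 107 and 106 CPM in PC, against 40.9, 34.7 and 34.7 CPM in LZtoDZ cells (log2 fold change 1.59 ± 0.12, adjusted p = 7.15e-05). Bcl2a1d and Bcl2a1b, targets of NF-kB that share much sequence and whose counts may be split between copies, were lower in PC (log2 fold changes -3.33 and -2.25). Bcl2l11 (BIM), which promotes cell death, differed most among the mice, at 188, 56.9 and 36.3 CPM in PC, against 7.60, 12.4 and 9.56 CPM in LZtoDZ cells.

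**Figure D4:**
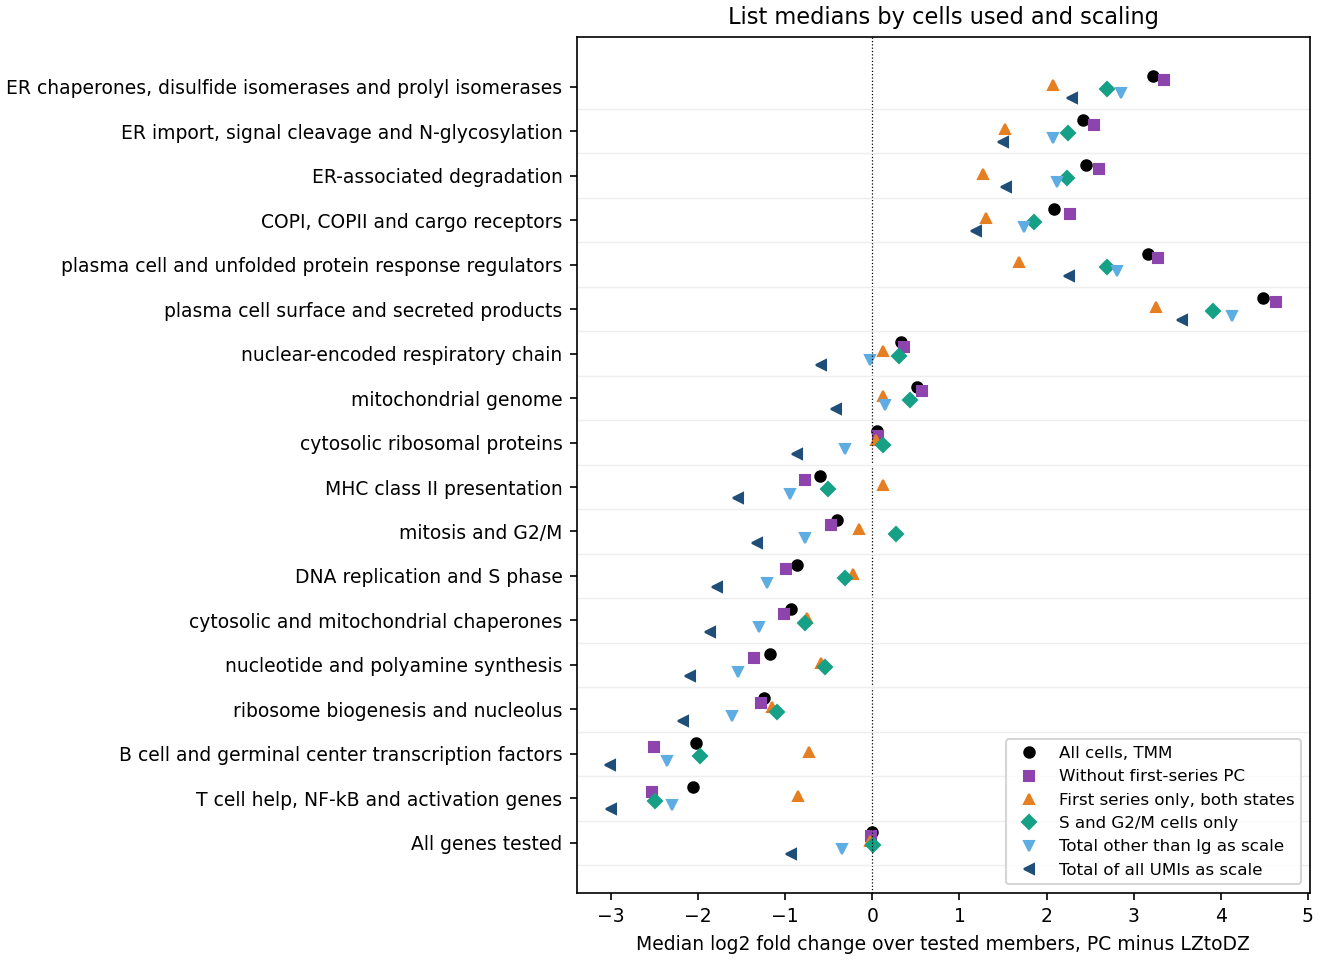
Median log2 fold change, PC minus LZtoDZ (horizontal axis), of 17 gene lists and of all genes tested under 6 choices of cells and scaling. The 6 secretory and plasma cell lists lie above 0 and ribosome biogenesis, chaperones outside the ER, nucleotide synthesis, S phase, B cell factors and activation genes below 0 under all 6 choices, while respiratory chain, mitochondrial genome, ribosomal protein, MHC class II and G2/M medians change sign; all genes shift to -0.35 and -0.93 under the 2 totals.

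Single cells of the annotated states were compared on the secretory and growth lists, with the cells of all mice pooled. The states were assigned from the same transcriptomes, so their separation here is a description and not an independent finding. The cells are not replicates, and no test was made on them. The ER folding list took a median of 4.74% of UMIs other than immunoglobulin over 137 PC and 0.448% over 165 LZtoDZ cells, beside 0.418% in LZ and 0.400% in DZ cells. Of the PC, 131 lay above every LZtoDZ cell, and the 6 that did not were all of the first series. The ribosome biogenesis list took a median of 0.210% in PC and 1.15% in LZtoDZ cells, beside 0.374% in LZ and 0.363% in DZ cells, and 130 PC lay below every LZtoDZ cell. For immunoglobulin, 135 PC lay above every LZtoDZ cell. The MHC class II list overlapped broadly, and only 1 PC lay below every LZtoDZ cell. Its median was 1.12% in PC and 1.91% in LZtoDZ cells, beside 4.96% in LZ and 3.13% in DZ cells.

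**Figure D5:**
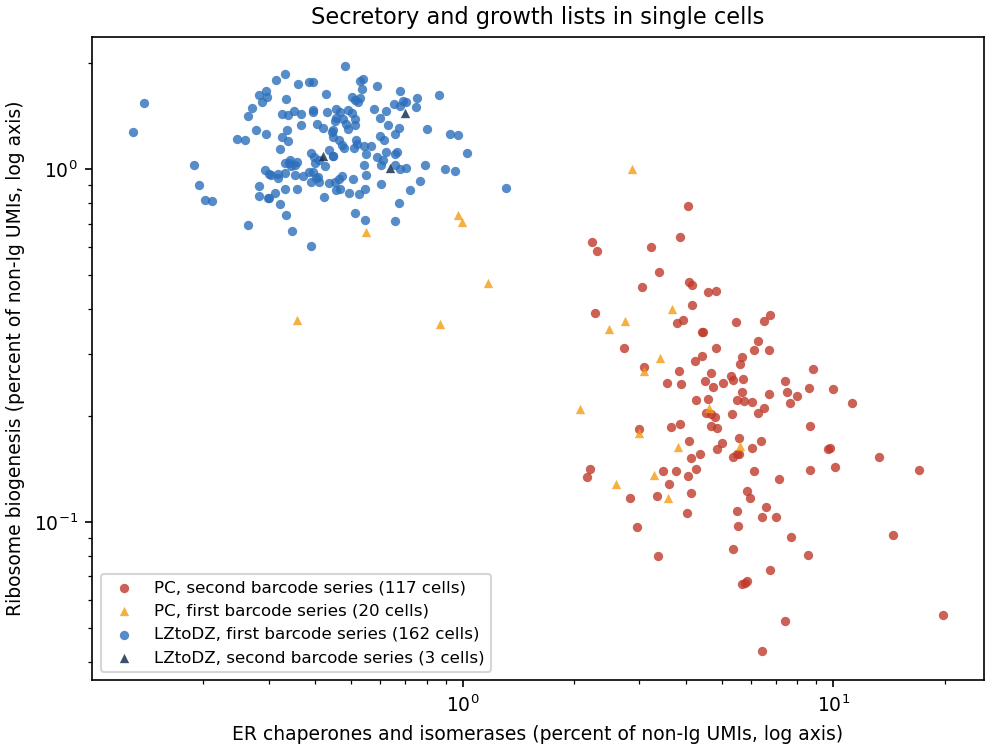
Share of UMIs other than immunoglobulin taken by ER chaperones and isomerases (horizontal log axis) and by ribosome biogenesis genes (vertical log axis) in each of 137 PC and 165 LZtoDZ cells, marked by barcode series. PC lie at lower right and LZtoDZ cells at upper left, and 6 PC of the first series fall within the range of LZtoDZ cells for the ER list, which ends at 1.31%.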

How the data were processed

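The deposited matrix holds raw UMI counts of 13886 genes in 6000 cells, each cell adding up to its deposited total, and the authors deposited these counts without normalization. Phase, state, cluster and scores (unit score, or other for cell totals and labels) were deposited by the authors. Per the submitters' processing notes, Cell Ranger, Seurat, mm10 and GRCm38 were used; no version, cell filter or doublet step is named there or in the labels.

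Counts were summed per mouse and state (769906 to 1464873 UMIs per sum) and fitted with edgeR 4.0.16 in R 4.3.3: filterByExpr, TMM, the mouse as a block, glmQLFit and glmQLFTest, Benjamini-Hochberg adjustment over 6899 genes and a threshold of 0.05. DESeq2 1.42.0 was an alternative. Both states come from the same animals, which makes the pairs; correlations of deviations between sums of a mouse were -0.107, 0.0153 and -0.0620. Lower bounds use a floor of 3 UMIs over the group, and intervals and bounds cover counting error only. On simulated counts of 6766 genes the fit recovered 28% of 2-fold and 85% of 4-fold changes, with 3 false calls. The simulation used a single fixed dispersion, 100 changed genes at each fold and means otherwise common to both states. It lacked the immunoglobulin shift and the many changed genes of these data, so its figures do not give the power or error rate of this comparison.

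The text names the 12 most changed genes of each direction at 50 CPM or more in the higher state and the same direction in 3 pairs, 15 core genes, up to 4 members of each of 33 lists in each direction at 20 CPM or more, and immunoglobulin constant genes; genes outside these (such as Hsp90b1, Hspa5, Canx, Atf4, Klf2 and those with promoter motifs) were picked with their values in view. The members, lists and tests were chosen with earlier results of these data known. Promoter windows are from RefSeq, GRCm38.p6. The 12 libraries have no file of their own, and the hashtag and receptor libraries were not used here. A few genes that the naming rule covers are not reported here.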

Additional observations from a re-analysis of the deposited data

How the results depend on the processing

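The call of 1756 genes higher and 1543 lower in PC moved by over 1.5 times under several choices. Higher calls numbered 841 with the total of all UMIs as scale, 413 within the first barcode series, 1156 among S and G2/M cells and 690 after thinning to equal UMIs and cells. Lower calls numbered 4257 with the total of all UMIs as scale, 2690 with that total without immunoglobulin, 946 with DESeq2, 2426 in a fit of all states, 199 within the first series, 968 among S and G2/M cells and 646 after thinning. Fewer genes were tested in the first series (4833), in S and G2/M cells (5386) and after thinning (2390) than the 6899 above. More were tested in the fit of all states (9230) and with DESeq2 (12095). The counts are therefore not shares. After thinning, 690 and 646 of 2390 genes are larger shares than the 25.5% and 22.4% above. In the first series the shares were 8.55% higher and 4.12% lower, and in S and G2/M cells 21.5% and 18%. The cause of the other shifts was not tested. Leaving out each mouse in turn gave 1448 to 1623 genes higher and 1149 to 1266 lower. Without the mouse as a replicate block, 1896 genes were higher and 1687 lower, and 1 of 218 named genes changed its call, none its direction. Leaving out first-series PC, a choice made after their number was seen, gave 1783 higher and 1654 lower, and leaving out cells with RNA of other types 1713 and 1502. The immunoglobulin share in PC minus that in LZtoDZ cells was 9.18 percentage points within the first series, against 34.7 in all cells. The share in S or G2/M, PC minus LZtoDZ, was -13.0 points within the first series and -25.8 when read from an Mki67 UMI after thinning, against -54.9 by phase. Of 218 named genes tested, 26 turned round under some choice, mostly with the total of all UMIs as scale: there the log2 fold changes were Cxcr4 -0.01, Foxo1 -0.15, Rps29 -0.13, Mrpl51 -0.25, Sars -0.14, Yars -0.21, Eif4a2 -0.23, Eif5 -0.30, Eif5b -0.30, Slc38a2 -0.28, Aldh18a1 -0.38, Psph -0.49, Srm -0.49, mt-Co3 -0.02, mt-Co2 -0.06, Psmb10 -0.27, Psmb8 -0.29, Nsdhl -0.15, Scd2 -0.20, Blnk -0.08 and Cd79b -0.24. Within the first series they were Aars 0.09, Eif5 -0.25, Slc3a2 -0.10, Srm -0.53, Scd2 -0.12, H2-Oa 0.09, H2-Aa 0.02 and H2-Eb1 0.15. Within that series, with 20 PC, 92 named genes no longer passed the threshold. Genes outside the naming rule turned round with the total of all UMIs as scale as well: Canx -0.25, Atf4 -0.02, Alg12 -0.57, Stt3b -0.78 and Cd74 -0.89.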

Other observations

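Although PC and LZtoDZ cells differ so widely, a small group of genes was higher in both than in LZ and DZ cells. By a rule set after the values were seen, 17 of 6899 genes had at least 20 CPM in all 6 sums of PC and LZtoDZ cells and at least 2 times the highest LZ or DZ sum. With plain CPM of all UMIs 6 genes met it, and with CPM of UMIs other than immunoglobulin 12, all among the 17. Fabp5, a fatty acid carrier, averaged 59.1 CPM in PC and 89.6 CPM in LZtoDZ cells, beside 10.1 CPM in LZ and 10.7 CPM in DZ cells. Ppa1, an inorganic pyrophosphatase, averaged 429 CPM in PC and 123 CPM in LZtoDZ cells, beside 25.8 CPM in LZ and 22.9 CPM in DZ cells. Srm, Ccnd2, Got1 and Nme2 complete the 6. The other 11 include Mettl1, Lap3, Tmem97, Cad, Gnl3, Tuba4a, Uck2, Ifrd2, Phgdh and Cmss1. Phgdh, the first enzyme of serine synthesis, averaged 415 CPM in PC and 341 CPM in LZtoDZ cells, beside 141 CPM in LZ and 127 CPM in DZ cells. PC and LZtoDZ cells share with each other a depth per cell above that of LZ and DZ cells, and its part in this pattern was not tested.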
